A study of Mus musculus with 35 samples.

Results

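The enzymes that write, copy and remove DNA methylation were followed at the mRNA level while mouse embryonic stem (ES) cells were driven towards primitive endoderm (PrE) by GATA6. The 9 genes were chosen by name, as Dnmt1, Dnmt3a, Dnmt3b, Dnmt3l, Uhrf1, Tet1, Tet2, Tet3 and Tdg, and all 9 were found among the 44853 gene symbols of the induction data. A smaller table of 6275 genes from an siRNA experiment held 6 of them, namely Dnmt3a, Dnmt3b, Uhrf1, Tet1, Tet2 and Tet3, and Dnmt1, Dnmt3l and Tdg were not analysed there. No measured value entered the rule that chose them, although earlier results of these data were known at the time.

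RNA-seq was performed on polyA RNA from 35 libraries. KH2 ES cells of mixed C57BL/6 x 129/Sv background, all carrying a Gata6 cassette under doxycycline (Dox) control, were grown with serum and LIF on mitotically inactive fibroblast feeders and collected without Dox (0 h, 3 libraries) or following Dox at 1 µg/mL for 16, 24, 48, 72, 96 or 168 h (3 libraries each). The 2 XEN libraries came from the X10 line, wild-type extraembryonic endoderm stem cells of CD1 background grown on feeders without LIF. In the siRNA experiment the same inducible cells received Dox together with a control siRNA (siCTL, 6 libraries) or an siRNA against Oct4 (siOct4, 6 libraries) for 48 h. The inducible cells were clones picked after drug selection, and the siRNA work used 1 of them, so a group stands for a clone and not for ES cells in general. Because XEN cells differ from the induced cells in line, strain and LIF, the part of each in a difference cannot be told apart. The study describes its replicates as independent, without saying for the induction libraries whether they were separate cultures. For the Oct4 knockdown it names 6 independent experiments and applied a paired test to endogenous Gata6. The tests here measure the spread between libraries.

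DNA methylation in mammals is set on cytosines of CpG dinucleotides by the de novo methyltransferases DNMT3A and DNMT3B, aided by DNMT3L, a relative without catalytic activity. It is copied after replication by DNMT1, which UHRF1 brings to hemimethylated DNA. The TET dioxygenases oxidise methylcytosine stepwise, and TDG excises the most oxidised forms so that base excision repair can restore cytosine. ES cells express most of this machinery, and extraembryonic lineages of the mouse embryo carry less DNA methylation than the epiblast.

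In mm10 with GENCODE M21 gene models, Dnmt3a spans chr12:3806007-3914443 on the plus strand, Dnmt3b chr2:153649450-153687730 (plus), Dnmt3l chr10:78041947-78063622 (plus), Dnmt1 chr9:20907209-20959888 (minus) and Uhrf1 chr17:56303321-56323486 (plus). Tet1 lies at chr10:62804570-62908996 (minus), Tet2 at chr3:133463679-133545139 (minus), Tet3 at chr6:83362373-83459084 (minus) and Tdg at chr10:82629828-82650799 (plus). The RefSeq tables gave 16 promoter windows for the 9 genes on GRCm38.p6. The 250 bases before a start site are shown for Dnmt3a and Dnmt3b, which rose together after Dox, for Tet2, which fell, and for Dnmt3l, which was not called under Dox but was almost absent from XEN cells, in each case for a window that overlaps no M21 exon. They are written 5′ to 3′ on the strand of the gene, with every CpG, the substrate of these enzymes, in capitals.
Dnmt3a, chr12:3806730-3806979, plus strand: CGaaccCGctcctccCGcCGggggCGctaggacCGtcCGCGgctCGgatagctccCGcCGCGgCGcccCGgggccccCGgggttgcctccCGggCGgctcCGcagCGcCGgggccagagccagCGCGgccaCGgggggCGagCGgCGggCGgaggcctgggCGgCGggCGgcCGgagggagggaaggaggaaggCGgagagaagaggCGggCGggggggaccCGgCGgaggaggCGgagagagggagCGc
Dnmt3b, chr2:153649199-153649448, plus strand: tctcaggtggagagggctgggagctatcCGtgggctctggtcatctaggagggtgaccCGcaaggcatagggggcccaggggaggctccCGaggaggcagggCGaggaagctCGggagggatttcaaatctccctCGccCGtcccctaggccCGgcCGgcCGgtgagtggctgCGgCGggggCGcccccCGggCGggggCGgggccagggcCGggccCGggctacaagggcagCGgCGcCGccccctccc
Tet2, chr3:133544391-133544640, minus strand: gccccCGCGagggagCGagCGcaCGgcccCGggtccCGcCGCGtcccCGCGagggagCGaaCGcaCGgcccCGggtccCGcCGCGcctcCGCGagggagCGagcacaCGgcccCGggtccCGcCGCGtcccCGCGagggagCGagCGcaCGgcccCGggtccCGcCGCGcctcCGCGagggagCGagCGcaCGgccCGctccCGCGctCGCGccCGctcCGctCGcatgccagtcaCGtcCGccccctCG
Dnmt3l, chr10:78049592-78049841, plus strand: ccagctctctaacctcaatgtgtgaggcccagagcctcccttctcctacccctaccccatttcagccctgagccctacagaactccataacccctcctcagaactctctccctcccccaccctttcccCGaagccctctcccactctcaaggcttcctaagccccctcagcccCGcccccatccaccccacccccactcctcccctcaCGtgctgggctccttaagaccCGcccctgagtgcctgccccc
The Tet2 window held 51 CpGs, the Dnmt3a window 38 and the Dnmt3b window 21, whereas the Dnmt3l window held 4; the median over all 32851 promoters was 6. As many CpGs as in the Tet2 window were present in 0.0670% of all promoters, against 1.88% for Dnmt3a, 16.3% for Dnmt3b and 62.2% for Dnmt3l. The other Dnmt3l windows held 5 and 3 CpGs, so that no annotated start of this gene is CpG rich. A GATA motif (the letters GATA with A or T before them and A or G after them, on either strand) was present in 26.5% of all promoters and, of the 16 windows, only in that before the most upstream start of Dnmt1. The octamer ATGCAAAT, present in 1.60% of promoters, was in none of the 16. These are letters in short windows and describe no binding.

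Values are in TPM, a share of all transcripts after division by transcript length that can be set side by side between genes, and changes are differences of log2(TPM + 1). A change was called where the limma p, adjusted over all genes tested, was under 0.05 and the change exceeded 1 on the log2 scale for the induction or 0.5 for the siRNA experiment. All 9 genes averaged 1 TPM or more in some group, as required for testing, and 15057 genes were tested in all. The labels held against markers: all 8 PrE genes were called higher at 168 h, among them Gata6, from 0.264 ± 0.0978 TPM at 0 h to 344 ± 26.2 TPM, and all 7 pluripotency genes were called lower. Feeders were depleted by adsorption to plastic before lysis. The summed level of 9 fibroblast genes, markers of the feeders, was 36.3 to 112 TPM at 0 h, 127 to 282 TPM at 168 h, with 6 of 9 called higher, and 94.0 to 98.7 TPM in XEN; their part in the results below was not tested. At 72 h, replicate 3 stood apart from replicates 1 and 2, with 526 of 9632 genes over 1 log2 unit from the group median, against 13 to 108 genes in every other induction library. Calls at 72 h against 0 h numbered 3 with and without that library, and Dnmt3b and Dnmt3l, which rest on it most, are given both ways.

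The 9 genes followed several distinct courses. Dnmt3a and Dnmt3b rose within 16 h of Dox and then fell below their starting level by 168 h. Tet1 was called lower from 48 h and Tet2 from 72 h, Tet3 was called higher from 72 h, and Uhrf1 was called lower at 168 h. Dnmt1, Dnmt3l and Tdg were not called at any time of Dox. Changes under the fold minimum, with adjusted p under 0.05 in limma, came earlier. They were -0.64 for Tet1 and -0.27 for Uhrf1 at 24 h, and -0.77 for Tet2 at 48 h. Tet3 was at 0.42 at 16 h (adjusted p = 0.0183, up to 0.094 over the alternatives). Of the 9 genes, 2 were called at 16 h, both higher, where 1.97% of all genes were called higher and 0.804% lower. The same number was called higher at 24 h, against 3.24% of all genes higher and 2.44% lower. At 48 h 2 were called higher (9.14% of all genes) and 1 lower (7.26%), and at 72 h 1 higher (14.7%) and 2 lower (11.5%). At 96 h the split was again 1 higher (15.4%) and 2 lower (14.1%). At 168 h 1 was called higher, with 22.6% of all genes, and 5 lower, with 16.5%, the median change of the 9 genes being -1.01 and that of all genes 0.09. All these comparisons share the 0 h libraries. No library came from cells kept without Dox to the later times, so Dox itself, time in culture and GATA6 cannot be told apart. RNA was extracted from all cells left after feeder removal, so that fewer cells of a type and less RNA per cell cannot be told apart.

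**Figure D1:**
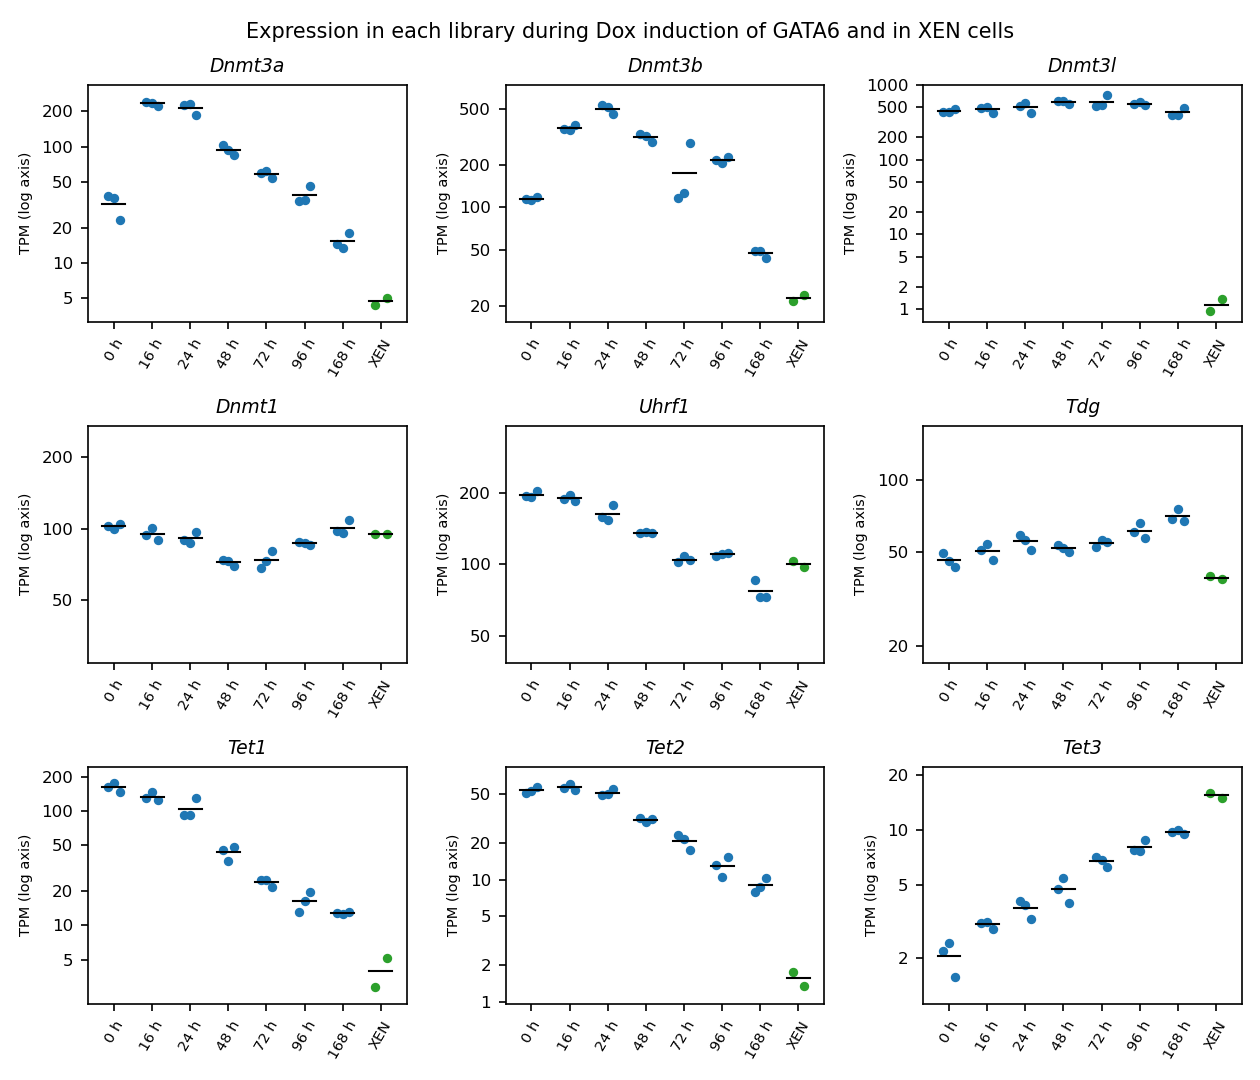
Level of each gene in TPM on a log axis in every library, by hours of Dox and in XEN cells (green); points are libraries, bars are group means, and the axis range differs between panels. Dnmt3a and Dnmt3b peak at 16 to 24 h, Tet1 and Tet2 decline, Tet3 climbs, and Dnmt3l falls to about 1 TPM in XEN only.

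The de novo methyltransferases gave the earliest calls. Dnmt3a stood at 37.7, 36.2 and 23.3 TPM in the 0 h libraries and at 243, 235 and 223 TPM after 16 h of Dox. All 16 h libraries were far above all 0 h libraries, a 7.22-fold difference of the means, and the fitted change was 2.84 ± 0.16 log2 units (SE; adjusted p = 1.28e-10 in limma). The level was still 214 ± 24.4 TPM (SD, n = 3, as for every Dox group below) at 24 h and then dropped by 48 h to 93.8 ± 9.80 TPM, by 72 h to 58.3 ± 4.22 TPM and by 96 h to 38.4 ± 6.79 TPM, where it overlapped with 0 h (log2 change 0.25, adjusted p = 0.157). At 168 h the libraries held 14.5, 13.5 and 18.1 TPM, all below the lowest 0 h library. That difference, -1.01 ± 0.16, lay at the fold minimum: it was called with all libraries but not without 0 h replicate 1, 0 h replicate 2, 168 h replicate 1 or 168 h replicate 2, where it ranged from -0.97 to -0.89. In the order of its levels, 16 h and 24 h did not differ beyond their spread (adjusted p = 0.803), nor did 96 h and 0 h, and every other neighbouring pair did.

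Dnmt3b, the more abundant of the pair at every time, had its highest mean at 24 h. Its libraries held 115, 112 and 119 TPM at 0 h. With 16 h of Dox they reached 360.1, 351 and 384 TPM, and with 24 h 531, 512 and 458 TPM. The groups did not overlap, and the log2 change was 1.66 ± 0.20 at 16 h (adjusted p = 1.05e-05) and 2.11 ± 0.20 at 24 h (adjusted p = 2.22e-07), a 4.35-fold difference of the means. With all libraries, 24 h did not differ from 16 h beyond the fitted spread (0.45 ± 0.20, adjusted p = 0.314 in limma, 0.0241 to 0.619 over the alternatives). Neither did 16 h differ from 48 h (adjusted p = 0.41), although the libraries of both pairs did not overlap. The fitted spread is shared by all groups and takes in 72 h replicate 3, which stood apart. Without that library the SE of Dnmt3b was 0.08 in the 72 h comparisons. These pairs were not refitted with only that library left out. At 48 h the mean was 314 ± 20.5 TPM. The 72 h libraries disagreed, with 117 and 127 TPM in replicates 1 and 2 but 287 TPM in replicate 3, the library that stood apart. Nanog in the same 3 libraries was at 16.2, 16.0 and 8.87 TPM and Gata6 at 188, 201 and 196 TPM. Against 0 h, Dnmt3b at 72 h differed by 0.49 ± 0.20 with all libraries (adjusted p = 0.0412 in limma). Without replicate 3 that difference was 0.08 ± 0.08 (adjusted p = 0.369). The change of Dnmt3b from 48 to 72 h was -0.95 with all libraries, short of the fold minimum, and -1.36 without replicate 3, where it was called (adjusted p = 8.18e-10), and that from 72 to 96 h went from 0.42 to 0.82, uncalled in both. By 96 h the libraries were close again, at 216, 206 and 228 TPM, still above 0 h (log2 change 0.91, adjusted p = 6.12e-04, under the fold minimum). Between 96 and 168 h Dnmt3b lost 2.17 ± 0.20 log2 units (adjusted p = 1.33e-07) and reached 49.2, 49.4 and 43.7 TPM, all below 0 h (-1.26 ± 0.20, adjusted p = 1.47e-05). Dnmt3bos, an antisense transcript of the locus that the stranded libraries count separately, went from 0.995 ± 0.222 TPM at 0 h through 3.97 ± 0.301 TPM at 24 h to 0.680 ± 0.186 TPM at 168 h, and the rodent paralogue Dnmt3c was at or near 0 TPM in every group.

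The ratio between both enzymes shifted for a time. Dnmt3a made up 21.9% ± 4.72 of the summed Dnmt3a and Dnmt3b level at 0 h and 39.1% ± 1.97 at 16 h. At 24 h it was 29.9% ± 1.09 and at 48 h 22.9% ± 0.788. At 72 h replicates 1 and 2 held 33.9% and 32.7%, above every 24 h library, but replicate 3, the library that stood apart, held 15.7%. The share was 15.0% ± 1.66 at 96 h and 24.5% ± 4.17 at 168 h. The 168 h and 0 h shares were not distinguishable (difference 2.65 points, two-sided exact permutation p = 0.6, where 3 against 3 libraries cannot go below 0.1), and the difference was -0.0715 points without 0 h replicate 3. The sum itself went from 147 ± 5.27 TPM at 0 h to 715 ± 61.5 TPM at 24 h and 62.8 ± 0.926 TPM at 168 h.

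Dnmt3l, the regulatory partner, was the most abundant of the 9 at 0 h and was not called at any time of Dox. The libraries held 431, 433 and 482 TPM at 0 h and 393, 399 and 490 TPM at 168 h, and the groups overlapped (log2 change -0.08 ± 0.13, adjusted p = 0.609). Rescaling the libraries by the median of ratios, which moved the median of all genes at 168 h from 0.09 to -0.08, gave -0.31 for Dnmt3l (adjusted p = 0.0461), still under the fold minimum. Group means in between ran from 470.4 TPM at 16 h to 592 TPM at 72 h, where replicate 3 held 722 TPM and the others 517 and 536 TPM (log2 change against 0 h 0.38 with it and 0.23 without). No neighbouring pair of Dox groups in the order of levels differed beyond its spread. The highest change with Dox was 0.39 ± 0.13 at 48 h (adjusted p = 0.0164). After 168 h of Dox Dnmt3l thus exceeded Dnmt3a and Dnmt3b together, 427 ± 54.2 against 62.8 ± 0.926 TPM, whereas at 24 h it had been below their sum.

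For maintenance, Dnmt1 was called at no time of Dox and Uhrf1 fell. Dnmt1 held 102, 99.97 and 105 TPM at 0 h. The 48 h libraries, with 73.9, 73.0 and 69.3 TPM, were all below these, and the 168 h libraries, with 97.8, 95.5 and 109 TPM, overlapped with them. The 48 h difference was -0.50 ± 0.07 (adjusted p = 4.25e-06), under the fold minimum, and the 168 h difference was -0.03 ± 0.07 (adjusted p = 0.75). After the same rescaling the latter was -0.25 (adjusted p = 0.00183), under the fold minimum too. Uhrf1 stood at 194, 192 and 204 TPM at 0 h and at 85.7, 72.6 and 72.7 TPM at 168 h, with no overlap. It was lower by 0.53 ± 0.07 at 48 h and 0.90 ± 0.07 at 72 h, under the fold minimum, and was called at 168 h (-1.34 ± 0.07, adjusted p = 6.68e-13). The summed level of 15 S phase genes fell as well, from 2468 to 2621 TPM at 0 h to 1399 to 1547 TPM at 168 h. Of the 15, 5 were called lower, where 16.5% of all genes were, and none higher. Cdc6 (0.78), Gins2 (0.82) and Ccne2 (0.71) went the other way, under the fold minimum. Most of the partners described below also fell. The part of S phase genes and partners in the Uhrf1 result was not tested. At 168 h Uhrf1 mRNA was thus below Dnmt1 mRNA, 77.0 ± 7.55 against 100.6 ± 6.99 TPM, after having been above it at 0 h, 196 ± 6.32 against 102 ± 2.31 TPM.

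The TET genes, which start the removal of methylation, turned over in opposite directions. Tet1 held 161, 175 and 147 TPM at 0 h. It was down to 45.4, 36.8 and 48.3 TPM by 48 h and to 12.8, 12.7 and 13.2 TPM by 168 h. No library overlapped between these groups, and the log2 changes of -1.87 ± 0.17 at 48 h (adjusted p = 1.58e-08) and -3.54 ± 0.17 at 168 h (adjusted p = 3.45e-13) were called, the latter a 12.5-fold lower mean. The 16 h value, -0.27 ± 0.17, was not (adjusted p = 0.359). Tet1 was also called in the step from 24 to 48 h (-1.23 ± 0.17, adjusted p = 1.22e-05). In the order of its levels, 0 h and 16 h, 16 h and 24 h, and 96 h and 168 h did not differ beyond their spread.

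Tet2 kept its level for a day and then fell. It stood at 51.3, 53.2 and 57.2 TPM at 0 h and at 49.4, 50.3 and 55.5 TPM at 24 h, overlapping. The means then went down to 31.1 ± 1.38 TPM (48 h), 20.7 ± 2.99 TPM (72 h), 13.1 ± 2.44 TPM (96 h) and 9.01 ± 1.18 TPM (168 h), and each of these groups differed from the next. The change against 0 h passed the fold minimum at 72 h (-1.35 ± 0.12, adjusted p = 1.13e-08) and reached -2.46 ± 0.12 at 168 h (adjusted p = 8.3e-13), a 5.98-fold lower mean.

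Tet3, the scarcest of the 9 at 0 h, had a higher mean at each later time. Its libraries held 2.17, 2.42 and 1.57 TPM at 0 h. By 48 h they held 4.77, 5.49 and 4.02 TPM and by 168 h 9.79, 10.1 and 9.53 TPM, with no overlap between these groups. The change was called from 72 h (1.35 ± 0.11, adjusted p = 4.39e-09) and was 1.83 ± 0.11 at 168 h (adjusted p = 2.60e-11), a 4.77-fold higher mean. On this scale the change of a low gene is understated, since 1 TPM is added before the logarithm. With 0.1 TPM added instead, Tet3 was already called higher at 48 h (1.18, adjusted p = 1.28e-06 in limma). No step between neighbouring times was called for Tet3.

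The summed TET level fell nonetheless, from 217 ± 12.4 TPM at 0 h to 31.7 ± 1.20 TPM at 168 h, and its makeup changed. Tet1 made up 74.1% ± 2.36 at 0 h, and 48 and 168 h of Dox left 54.7% ± 3.25 and 40.7% ± 1.08, the latter a difference of -33.4 points, while Tet3 made up 0.942% ± 0.155, 6.08% ± 1.45 and 30.9% ± 1.78, a difference of 30.0 points. For both genes all 168 h libraries lay outside the 0 h range, and the two-sided exact permutation p of 0.1 was the smallest that 3 against 3 libraries allow. Tet2 went from 24.9% ± 2.51 to 40.2% ± 1.79 at 72 h and back to 28.4% ± 2.62 at 168 h. Deposited values give no depth, so no counting interval was set on these shares.

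**Figure D2:**
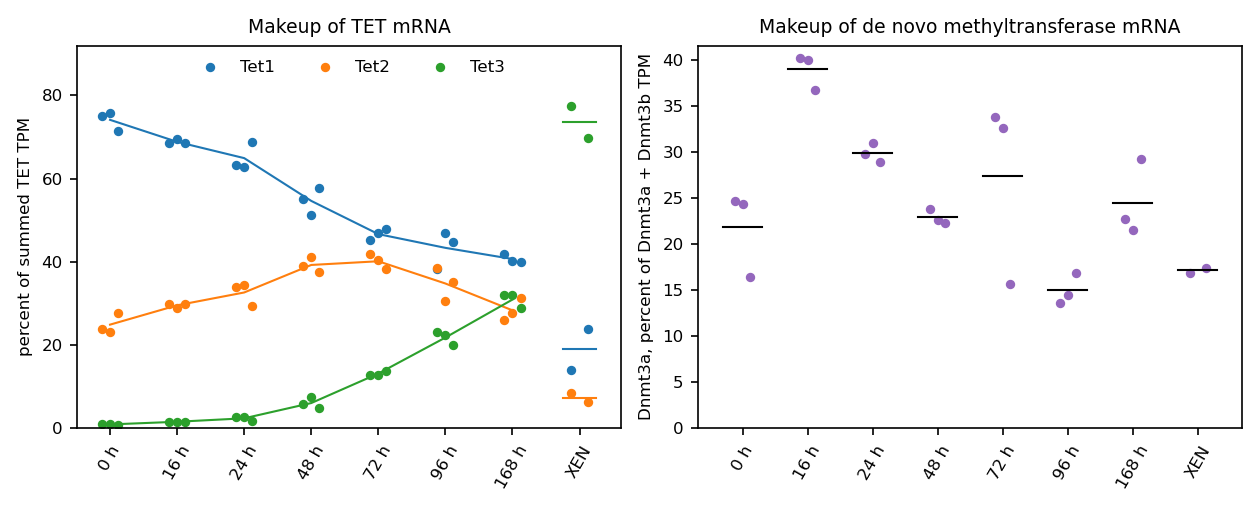
Left, share of Tet1, Tet2 and Tet3 in their summed TPM, in percent, in every library (points) with the group means joined along the Dox course and as bars for XEN; right, Dnmt3a as a percent of Dnmt3a and Dnmt3b TPM, with bars for means. Tet3 climbs from under 1.05% in all 0 h libraries to 28.9% or more at 168 h. Only at 16 and 24 h is the share of Dnmt3a above all 0 h libraries in every library. At 72 h it is so in replicates 1 and 2, and at 168 h in replicate 3.

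Tdg, the glycosylase that acts after TET oxidation, was at 49.1, 45.8 and 43.0 TPM at 0 h and at 68.5, 75.5 and 66.9 TPM at 168 h. The groups did not overlap, and the change of 0.60 ± 0.08 (adjusted p = 7.13e-07) stayed under the fold minimum. The near copy Tdg-ps2, listed at 24.5 ± 1.34 TPM at 0 h and 35.6 ± 1.34 TPM at 168 h, can share reads with Tdg, so both levels are uncertain. Their sum with Tdg-ps was 70.9 ± 4.05 TPM at 0 h and 107 ± 5.45 TPM at 168 h.

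**Figure D3:**
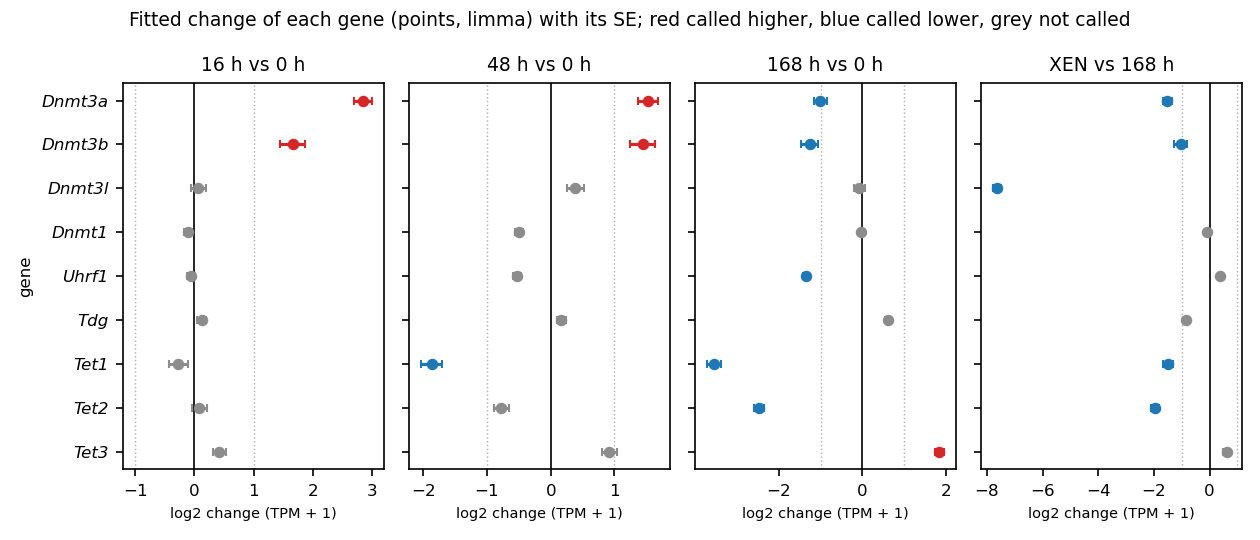
Fitted log2 change of TPM + 1 for each gene in 4 comparisons, points with SE; red was called higher, blue called lower and grey not called, dotted lines mark a change of 1 and axes differ between panels. At 16 h only Dnmt3a and Dnmt3b were called, and the largest value is the Dnmt3l difference of -7.64 between XEN and 168 h.

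Between successive times, 2 of the 9 genes were called from 24 to 48 h, Dnmt3a (-1.18 ± 0.16) and Tet1, both lower, where 2.44% of all genes were called lower. From 96 to 168 h 2 more calls were made, Dnmt3a (-1.26 ± 0.16, adjusted p = 3.51e-06) and Dnmt3b, again both lower, and the share of all genes called lower was again 2.44%. No member was called from 16 to 24 h (0.352% of all genes in either direction), 48 to 72 h (3.33%) or 72 to 96 h (1.71%). At an unadjusted p under 0.05 these 3 steps held 3, 6 and 5 of the 9 genes in limma, the only tool used for these values. The share of all genes at that limit is not given, so these counts cannot be set against it.

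XEN cells, the stem cell counterpart of PrE, were then compared with 168 h. Of the 9 genes 5 were called lower in XEN and none higher, where 9.17% of all genes were called lower and 4.73% higher. Dnmt3l showed by far the widest gap: 0.950 and 1.36 TPM in the XEN libraries against 393 TPM or more at 168 h, a 371-fold difference of the means (-7.64 ± 0.14 log2 units, adjusted p = 1.99e-18). Dnmt3a was at 4.40 and 5.01 TPM in XEN (-1.51 ± 0.17, adjusted p = 9.3e-07), Dnmt3b at 21.6 and 23.7 TPM (-1.03 ± 0.23, adjusted p = 9.4e-04), Tet1 at 2.89 and 5.17 TPM (-1.50 ± 0.18, adjusted p = 2.16e-06) and Tet2 at 1.76 and 1.35 TPM (-1.97 ± 0.14, adjusted p = 1.00e-09). For none of these did a XEN library overlap with 168 h. The Dnmt3b call was lost without XEN replicate 1 (-0.97) and under a rescaling of the libraries by the median of ratios (-0.90, adjusted p = 0.00417, against 4.43e-04 to 0.0147 over all alternatives). Tet3 was at 16.0 and 15.1 TPM in XEN, above all 168 h libraries (0.61 ± 0.13, adjusted p = 6.04e-04, under the fold minimum), and made up 73.6% ± 5.39 (n = 2) of a TET sum of 21.1 ± 0.688 TPM, so that it was the main TET mRNA in XEN only. Uhrf1, at 103 and 97.0 TPM, was also above 168 h (0.38 ± 0.07), Dnmt1 overlapped with it (94.5 and 94.7 TPM), and Tdg was lower, at 39.4 and 38.2 TPM (-0.84 ± 0.09), whereas Tdg-ps2 was at 70.5 ± 5.03 TPM and the sum of Tdg and its copies at 112 ± 5.80 TPM, close to the 168 h sum. Set against 0 h, which both comparisons share, XEN gave 1 call higher and 5 lower, with 18.9% of all genes called higher and 18.7% lower.

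Oct4 was then depleted during the first 48 h of Dox. The targeted mRNA, Pou5f1, was at 782 to 1194 TPM in siCTL and 282 to 387 TPM in siOct4, with no overlap (log2 difference -1.52, two-sided exact permutation p = 0.00216, the smallest that 6 against 6 libraries can give). This table was limited by its authors to genes they had found to respond to GATA6, and 6264 of its genes were tested. The replicate numbers were taken to pair the libraries here. Libraries of the same number deviated together in all 6 pairs (r from 0.236 to 0.707), but those of other numbers reached r = 0.459, so the pairing is inferred. Of the siCTL libraries, replicate 3 had 987 of 4402 genes over 1 log2 unit from the group median and replicate 4 had 410, against 23 to 110 in the others, and of the siOct4 libraries replicate 3 had 390 of 4265, against 48 to 248. Leaving out siCTL replicate 4 or siOct4 replicate 3 alone left the count of called members at 0. The trend of level with gene length also differed between libraries, from -0.21 log2 units per doubling of exon length in siCTL replicate 3 to 0.19 in siCTL replicate 4. Dnmt3a and the TET genes, with 15457 to 16870 exon bases, are the longest of the 9. In the induction this trend drifted too, from -0.057, -0.057 and -0.065 in the 0 h libraries to 0.083, 0.105 and 0.093 at 168 h. It was not removed there, and its part in the induction results, among them the Dnmt3a call at the fold minimum, was not tested.

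Dnmt3a and Tet2 were lower in siOct4 in every pair, and the other members were not. Without the pairing limma called 0 of the 6 members, where 2.67% of all genes were called in either direction. Of the 6, 2 had an unadjusted p under 0.05, a limit for which the share of all genes is not given. A fit that took the pair into account (the replicate block) called both lower, with 6.15% of all genes called lower. Dnmt3a ranged from 20.7 TPM over a median of 42.8 to 73.2 TPM in siCTL and from 9.64 over 16.0 to 36.3 TPM in siOct4. The groups overlapped, but siOct4 was lower in 6 of 6 pairs, by 0.80 to 1.79 log2 units. The log2 difference was -1.19 ± 0.38 (adjusted p = 0.133, range over the alternatives 3.21e-04 to 0.286), with adjusted p = 0.00124 in the blocked fit and 3.21e-04 when the length trend was removed as well. The two-sided exact permutation p was 0.026 and the paired sign-flip permutation p 0.0312, the smallest that 6 pairs allow. Dnmt3a was also called after rescaling by the median of ratios (-1.05, adjusted p = 0.0377), but not without pair 3 (-1.22, adjusted p = 0.0901).

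Tet2 ran from 6.69 over a median of 42.4 to 53.2 TPM in siCTL and from 6.22 over 14.1 to 24.0 TPM in siOct4. Outside siCTL replicate 3 all siCTL libraries, at 35.5 TPM or more, were above all siOct4 libraries. The log2 difference was -1.21 ± 0.45 (adjusted p = 0.224, range over the alternatives 0.00488 to 0.411). Again siOct4 was lower in 6 of 6 pairs, but pair differences ran from -2.20 to -0.09, the latter in pair 3. The adjusted p was 0.0126 in the blocked fit, 0.00488 with the length trend removed too, and 0.0115 without pair 3 (-1.43). Tet2 was not called after rescaling (-1.07, adjusted p = 0.101). Its exact permutation p was 0.0476. Without siCTL replicate 3 alone, limma called 2 members with no block.

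The remaining 4 were not called in either fit. Dnmt3b ranged from 89.4 over 248 to 316 TPM in siCTL and from 91.1 over 172 to 301 TPM in siOct4, a difference of -0.30 ± 0.34 with 4 of 6 pairs lower. Tet1 differed by -0.48 ± 0.60, Tet3 by -0.29 ± 0.29 and Uhrf1 by -0.02 ± 0.22, the last changing sign to 0.13 under rescaling. Dnmt3a made up a smaller share of the summed Dnmt3a and Dnmt3b level in siOct4, 9.06% ± 1.57 against 16.1% ± 3.24 in siCTL, without overlap (-7.02 points, two-sided exact permutation p = 0.00216, the smallest possible). The Tet2 share of the TET sum was 42.0% ± 7.36 in siOct4 and 55.1% ± 6.80 in siCTL (-13.0 points, exact permutation p = 0.0173). The Tet1 share was 46.1% ± 10.6 against 36.1% ± 9.36 (exact permutation p = 0.121) and the Tet3 share 11.9% ± 3.96 against 8.84% ± 4.22 (exact permutation p = 0.216). These 4 shares were compared as 1 family, with Benjamini-Hochberg adjusted p of 0.00866 for Dnmt3a, 0.0346 for Tet2, 0.162 for Tet1 and 0.216 for Tet3. Within pairs, the Tet1 share was higher in siOct4 in 6 of 6, by 3.51 to 18.2 points, and the Tet2 and Dnmt3a shares were lower in 6 of 6. Each of these 3 gave a paired sign-flip permutation p of 0.0312, the smallest that 6 pairs allow (adjusted p = 0.0417), so that the Tet1 share differed only when the pairing was used. The Tet3 share was higher in 5 of 6 pairs (paired sign-flip permutation p = 0.0938, adjusted p = 0.0938).

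**Figure D4:**
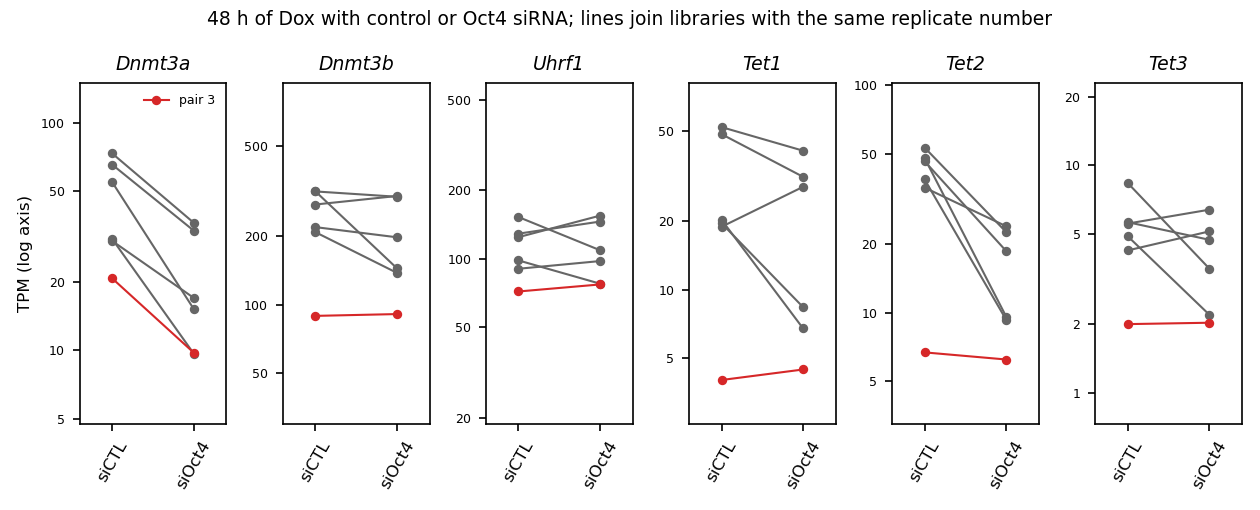
TPM on a log axis of the 6 genes present in the siRNA table after 48 h of Dox; lines join the siCTL and siOct4 libraries with the same replicate number, and pair 3 is red. All 6 lines fall for Dnmt3a and Tet2, whereas those of the other genes run both ways, and pair 3 is among the lowest throughout.

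Genes that work with these enzymes were examined as fixed lists, beside 16.5% of all genes called lower and 22.6% called higher at 168 h, and 9.17% lower and 4.73% higher in XEN against 168 h. Of the partners of maintenance methylation, 8 of 11 were called lower and 1 higher at 168 h, with a list median of -2.13 against 0.09 for all genes. The widest falls were those of Dppa3 (-5.13), which counters UHRF1 on chromatin, and Zfp57 (-2.98), a zinc finger protein that keeps imprinted sites methylated, while Uhrf2, the paralogue of Uhrf1, rose from 18.1 ± 2.81 to 60.8 ± 7.31 TPM (1.70 ± 0.17). In XEN against 168 h Dppa3 was lower (-1.51) and Cdca7l higher (1.80). Among 6 regulators of de novo methylation 1 fell, Prdm14 (-3.02), a repressor of Dnmt3 genes in ES cells, and 1 rose, E2f6 (1.54), a repressor of germline genes, the list median being 0.17. Prdm14 was at 8.02 ± 0.394 TPM at 0 h and already at 1.99 ± 0.358 TPM at 16 h. Nsd1, a histone methyltransferase, was lower in XEN than at 168 h (-1.10).

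Of 7 TET partners and cofactor genes tested, of 8 listed, Cxxc5 was called, lower at 168 h (-1.94) and lower again in XEN (-1.75), with a list median of 0.40 at 168 h. Base excision repair had 5 of 15 called lower, where the share of all genes was 16.5%, and none higher (median -0.68), led by Parp1 (-2.54), a poly(ADP-ribose) polymerase that senses strand breaks, and Hmces (-2.35), which shields abasic sites. In XEN, Gadd45a was lower than at 168 h (-1.23). Of the methyl-CpG readers 3 of 7 were called higher, where the share of all genes was 22.6%, and none lower (median 0.46), Mbd2 (2.18) and Zbtb4 (1.99) with the widest rises and Mbd1 (1.25) the other; Zbtb4 was lower in XEN (-1.10). Methyl donor supply had 4 of 9 called lower, against 16.5% of all genes (median -0.79), with Shmt1 (-1.90) and Shmt2 (-1.82) first, and in XEN Ahcy, which clears S-adenosylhomocysteine, was higher than at 168 h (1.93).

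Germline genes whose promoters are usually methylated in somatic cells were called lower in 6 of 8 tested, of 10 listed, against 16.5% of all genes, and higher in 1 (median -1.74). Hormad1 (-3.62) and Dazl (-2.61) fell most, and Taf7l rose (2.22, from 1.03 ± 0.310 to 9.14 ± 4.79 TPM). In XEN 3 of the 8 were called lower than at 168 h, against 9.17% of all genes, namely Taf7l (-3.05), Ddx4 (-2.33) and Sycp3 (-1.09). S phase genes had 5 of 15 called lower at 168 h, again against 16.5% of all genes (median -0.64), with Ccne1 (-2.38) and Mcm2 (-1.17) first, and none at 48 h. In siOct4, without the pairing, limma called none of the genes of these 8 lists present in the siRNA table. Pou5f1 was the only gene called among the marker lists in that fit. At an unadjusted p under 0.05 in limma the count for the 8 lists was 7 of 42. The share of all genes at that limit is not given, so this count cannot be set against it. Calls of list and marker genes in the blocked fit, which added Dnmt3a and Tet2 among the members, are not given here. The lack of calls therefore does not show that these genes were unaffected. These lists were chosen with earlier results of the same data known and are no independent evidence of direction.

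**Figure D5:**
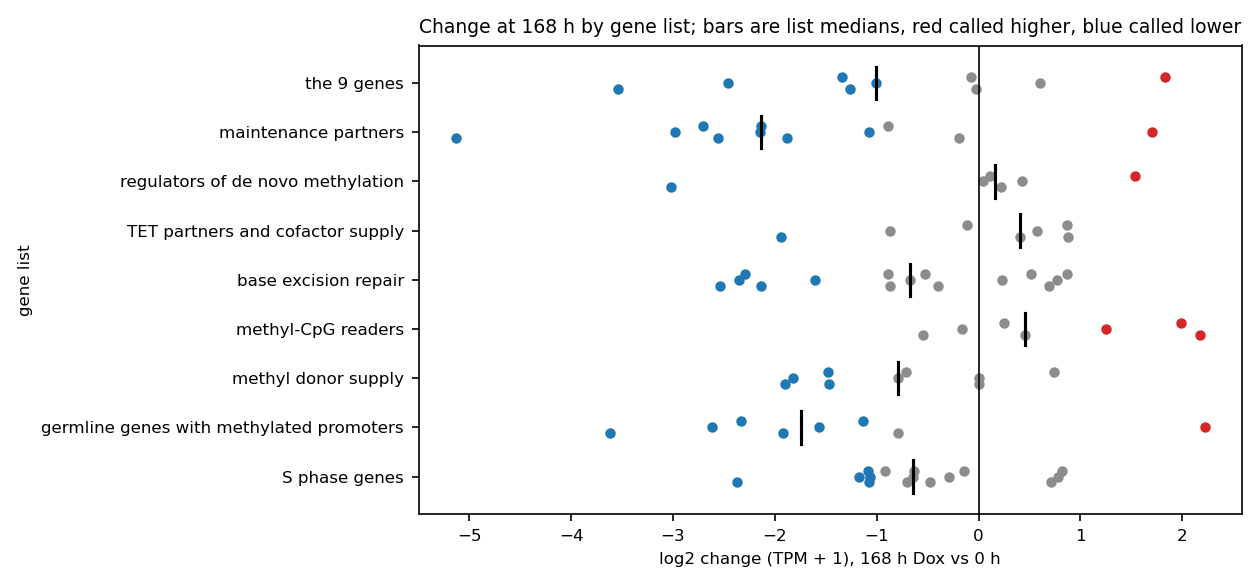
Log2 change of TPM + 1 at 168 h of Dox against 0 h for the 9 genes and for the tested genes of 8 related lists; points are genes, bars are list medians, red was called higher, blue called lower and grey not called. Maintenance partners (median -2.13) and germline genes (median -1.74) lie furthest to the left, and the methyl-CpG readers hold 3 of the 6 points called higher in the lists.

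For each member the genes with the most similar pattern were sought among 11355 genes, by Pearson correlation of log2(TPM + 1) over the 23 induction libraries, which share one time course and one separate line. Dnmt3a was followed most closely by Erf (r = 0.967), Whamm and Calcoco2, and Calcoco2 went from 25.3 TPM at 0 h up to 195 TPM (16 h) and down to 0.842 TPM (168 h). The closest to Dnmt3b were Lrrn4 (r = 0.98), Uba1 and Trim8. Those of Dnmt3l, Rps3a3 (r = 0.989), Mid1 and 2410003L11Rik, were also far lower in XEN than at 168 h. Rps3a3 still held 6.99 TPM and Mid1 18.7 TPM in XEN, from 289 and 232 TPM at 168 h. Only 2410003L11Rik, at 57.7 TPM in 0 h cells and 34.3 TPM in 168 h cells, was listed at 0 in XEN. Uhrf1 was matched by Etv4 (r = 0.982), Nufip1 and Fbxo5, and Dnmt1, with no called change, by Akap1 (r = 0.938), Bax and Btbd19. Tet1 paired with Ranbp17 (r = 0.99), Ltbp4 and Gm6871, and Tet2 with Zdbf2 (r = 0.99), Map4k1 and Rbpms2. Tet3 was matched by Tmed7 (r = 0.987), Mogs and Sprtn, of which Mogs rose from 20.7 TPM at 0 h to 93.1 TPM at 168 h and 119 TPM in XEN. Tdg had the least close matches, Zfp362 (r = 0.902), Ankib1 and Arl5a. Among the members themselves, Dnmt3a and Dnmt3b (r = 0.936), and Tet1 and Tet2 (r = 0.959), ran together, and Tet1 and Tet3 ran opposite (r = -0.974).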

How the data were processed

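PolyA RNA was sequenced as stranded, paired-end libraries in 23 samples of the induction course and 12 of the siRNA experiment. The authors trimmed reads with cutadapt, aligned them to mm10 with STAR, quantified them with RSEM and deposited TPM values per gene, after omitting libraries they judged outliers by principal components; versions are not given in the sources used here. TPM sums to a fixed total (999764 to 999881 in the induction libraries), so sequencing depth is unknown. Strand was used in counting, which keeps antisense genes apart, while near copies share reads. The tables also hold class columns with the authors' own comparisons, which were not used.

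TPM values were taken to log2(TPM + 1), genes with a group mean of at least 1 TPM in 1 group were kept, and limma 3.58.1 in R 4.3.3 (trend and robust, Benjamini-Hochberg) was fitted on all groups of a table. Calls needed an adjusted p under 0.05 and a log2 change above 1, or 0.5 for siRNA. Shares and single values were compared by two-sided exact permutation tests, and siRNA shares also within pairs (added after seeing the data). The fits were tested on simulated data with 200 changed genes. For 168 h against 0 h, 98.5% of changes of 2 log2 units were called, with 3 false calls. For siOct4 against siCTL, without the pairing, 64.0% of changes of 1 log2 unit were called, with 4 false calls. A change of that size can thus go uncalled in the siRNA experiment. The genes, lists and tests were chosen with earlier results of these data known. Named beside the 9 genes were the 3 genes with the highest Pearson correlation to each (group mean of at least 5 TPM in 1 group) and, per list, the called genes with the 2 largest rises and 2 largest falls at 168 h; the list genes named in XEN, and Mbd1, were chosen after their values were seen.

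Replicate numbers come from the labels. In the siRNA experiment the deviations of same-numbered libraries correlated in all 6 pairs (r of at least 0.236, mean 0.328). Other pairs ran from -0.556 to 0.459, with a mean of -0.064. The numbers were therefore taken as pairs, which these correlations do not settle. Alternatives were another pseudocount (0.1), no filter or a filter of 5 TPM, rescaling by the median of ratios, no fold minimum, a replicate block, only the groups compared, removal of the trend with exon length for siRNA, and leaving out each library.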

Additional observations from a re-analysis of the deposited data

Results flagged for a closer look

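Among 12 sets of 6 siRNA libraries tested for a value far from the rest, 2 held one, both in siCTL replicate 3. Dnmt3b was at 6.50 on the log2(TPM + 1) scale there (89.4 TPM), against 7.71 to 8.31 in the other siCTL libraries, a gap of 0.671 of the whole range where 0.625 is the limit. Tet2 was at 2.94 (6.69 TPM), against 5.19 to 5.76, a gap of 0.797 of the range. Chance marks about 1 in 20 sets. The same library was the furthest from its group median over all genes and had the steepest fall of level with gene length, and their part in these values was not tested.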

How the results depend on the processing

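Without the fold minimum, calls rose from 2 to 6 members at 24 h, 3 to 8 at 48 h, 3 to 9 at 72 h, 3 to 8 at 96 h, 5 to 8 in XEN against 168 h and 4 to 23 between consecutive times. In siOct4, 0 members were called in the main fit, 1 after rescaling, 2 with the replicate block, 2 with the block and length correction, 1 without pair 3 (the last 2 settings were chosen after seeing the data), and 0 to 2 with 1 library left out, the 2 without siCTL replicate 3. Leaving out 1 library gave 2 calls at 16 h and at 24 h, 3 to 4 at 48 h, 3 at 72 h and 96 h, 5 to 6 at 168 h, 6 to 7 in XEN against 0 h, 4 to 5 in XEN against 168 h and 4 to 5 between consecutive times. Apart from the block in siOct4, the share of all genes called under these other settings is not given. The counts, also those without the fold minimum, therefore cannot be set against it.

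Signs turned only in values near 0 that were never called. With 1 library left out, Dnmt1 ran from -0.081 to 0.011 at 168 h against 0 h and from -0.035 to 0.087 from 48 to 72 h. Dnmt3l ran from -0.0021 to 0.22 from 16 to 24 h, -0.15 to 0.088 from 48 to 72 h and -0.15 to 0.094 from 72 to 96 h, and Uhrf1 from -0.14 to 0.080 in siOct4. Rescaling turned Dnmt1 in XEN against 168 h (0.048) and from 48 to 72 h (-0.034), and Uhrf1 in siOct4 (0.13). The Dnmt3a share at 168 h ran from -0.0715 to 4.15 points and was -1.27 points from group medians; the Tet1 share ran from -34.8 to -32.6 points. The cause of these turns was not tested.

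Of 1503 single values of the induction, 1431 kept direction and side of the threshold, 55 became called, 7 lost their call (Dnmt3a at 168 h and Dnmt3b in XEN) and 10 turned; of 126 siRNA values these were 111, 8, 0 and 7. Rescaling moved the median of all genes from 0.09 to -0.08 at 168 h and from -0.12 to 0.00 in siOct4. In the induction the numbers did not pair the libraries (same-number correlation 0.0333 on average, down to -0.186), and of the calls the block changed only that of Dnmt3b in XEN against 168 h (-0.99). Depth is unknown, and XEN has 2 libraries.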
